A study of Mus musculus with 6 samples.

Results

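The genes described here serve the endoplasmic reticulum (ER) of secretory cells: 46 genes for the translocation of new proteins into the ER, their folding, the removal of misfolded ones, and the sensors and effectors of the unfolded protein response. They were taken by gene symbol from the deposited table of 54532 genes, without a cut on any measured value. The list itself was chosen with earlier results of these data known. A total of 47 rows matched, because Ddit3 is listed under 2 identifiers, and the second of these held no read in any library. The other 46 rows, 1 for each gene, all passed the filter on low counts. The smallest count of any of them in any library was 68 reads.

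Pancreatic buds of mouse embryos at E12.5 were kept as explants for 2 days in M199 medium with 10% fetal bovine serum and 0.1% DMSO. The 3 control libraries received the vehicle alone, and the 3 TBZ libraries received 0.1 µM tetrabenazine (TBZ) throughout, an inhibitor of the vesicular monoamine transporter VMAT2. The study asked what the VMAT2-monoamine pathway does in pancreatic development. The labels do not give the mouse strain, the number of buds per library or separate cultures, and so the p-values below reflect only how these libraries scatter, which may be technical. A bud holds epithelium and mesenchyme together, and a lower level in bulk RNA cannot tell fewer cells of a type from less RNA per cell.

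Proteins bound for secretion are recognised by the signal recognition particle, pass the Sec61 translocon, lose their signal peptide and fold with the help of chaperones and disulfide isomerases. When unfolded proteins build up, the sensors IRE1 (Ern1), PERK (Eif2ak3) and ATF6 raise chaperones and degradation factors and slow translation. Acinar cells, which make the digestive enzymes, carry an ER load that is among the largest of any cell, and IRE1 with its target Xbp1 is needed for their secretory apparatus.

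Many genes of this response carry the ER stress response element (ERSE) in their promoters. For 38 of the 46 genes, RefSeq promoter windows (GRCm38.p6) from 250 bases before to 50 bases after the transcription start were at hand. ERSE was searched on both strands as CCAAT and CCACG with any 9 bases between them, ERSE-II as ATTGG and CCACG with any 1 base between them, the unfolded protein response element as TGACGTGG and the core of the C/EBP-ATF element as TGATGNAA. ERSE lay in the windows of 9 of the 38 genes, against 0.119% of all 32851 windows. ERSE-II lay in 2 of the 38 genes (0.0365% of all windows), the unfolded protein response element in 1 (0.676%) and the C/EBP-ATF core in 2 (3.97%). These shares have unlike units. An ER gene counted if any of its windows held a match, whereas the 32851 windows, of 27025 genes, were counted singly. The stretches below show the 10 genes with an ERSE or ERSE-II before the RefSeq transcription start, because they are the chaperones, cofactors and degradation genes whose values follow. The ERSE-II of the BiP partner Dnajb11 lies after the start and is not shown, nor are the Trib3 and Sec24d matches to the other motifs. The stretches are written 5′ to 3′ on the strand of the gene, with the fixed letters of a match in capitals.
Hspa5: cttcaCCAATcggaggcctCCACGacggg
Hsp90b1: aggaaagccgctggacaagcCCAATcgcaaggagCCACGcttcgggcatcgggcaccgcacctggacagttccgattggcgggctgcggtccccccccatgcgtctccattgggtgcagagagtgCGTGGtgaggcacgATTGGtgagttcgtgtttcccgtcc
Calr: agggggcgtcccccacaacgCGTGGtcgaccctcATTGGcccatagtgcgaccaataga
Canx: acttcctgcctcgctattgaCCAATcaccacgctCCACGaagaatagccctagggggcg
Pdia6: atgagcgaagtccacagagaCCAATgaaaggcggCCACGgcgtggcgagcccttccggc
Dnajc3: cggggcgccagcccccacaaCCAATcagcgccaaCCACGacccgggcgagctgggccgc
Creld2: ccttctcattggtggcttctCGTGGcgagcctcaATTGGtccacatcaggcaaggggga
Derl3: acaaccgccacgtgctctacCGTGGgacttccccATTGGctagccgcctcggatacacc
Syvn1: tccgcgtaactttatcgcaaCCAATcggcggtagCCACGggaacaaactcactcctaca
Herpud1: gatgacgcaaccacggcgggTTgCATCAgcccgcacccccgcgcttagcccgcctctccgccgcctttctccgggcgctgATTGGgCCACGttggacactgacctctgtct
The Hspa5 stretch lies at chr2:34772020-34772048 on the plus strand and holds 1 ERSE. It lies before the RefSeq start used for the window (34772090) but inside the Hspa5 gene of the deposited table, whose first base is 34771970. The Hsp90b1 stretch lies at chr10:86705513-86705676 on the minus strand and holds 2, in opposite orientations. The Derl3 stretch lies at chr10:75893222-75893280 and the Herpud1 stretch at chr8:94386297-94386407, both on the plus strand. The Herpud1 stretch holds a C/EBP-ATF core followed by an ERSE-II. A match is a run of letters and was not tested as a binding site.

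The 6 libraries held between 35825033 and 50620936 counted reads, and log2 CPM of any 2 libraries correlated across tested genes with r between 0.993 and 0.997. Pdx1, a transcription factor of the pancreatic bud, stood at 18.4 to 29.9 FPKM and the acinar factor Ptf1a at 5.79 to 8.17 FPKM in the 6 libraries. Among all 18226 tested genes, 34 passed an adjusted p under 0.05 in the edgeR quasi-likelihood test, 28 of them (0.154% of tested genes) higher and 6 (0.0329%) lower in TBZ. Whichever library was left out, this count lay between 5 and 36, and it was 5 without TBZ replicate 3, 11 without TBZ replicate 1 and 13 without control replicate 2.

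No ER gene passed the test between TBZ and control buds. Of the 46 genes, 34 had a positive and 12 a negative log2 ratio (log2 fold change of TBZ over control), and the median was 0.04, against a median of 0.00 over all tested genes. None reached an edgeR adjusted p under 0.05, beside 0.187% of all tested genes, and DESeq2, which called 1.43% of the genes it gave an adjusted p, and the authors' deposited table, with 0.767% of its genes past that threshold, called none of the 46 either. At an unadjusted p under 0.05 there were 9 of the 46 (7 with a higher and 2 with a lower level in TBZ), where 9.61% of all tested genes are (5.08% higher, 4.54% lower) and 9.72% of those with a mean of at least 10 FPKM. The 3 control and 3 TBZ values did not overlap for 10 genes (8 higher, 2 lower in TBZ), beside 15.5% of all tested genes (8.47% higher, 7.03% lower). The 95% interval of the log2 ratio lay within a 1.25-fold change in either direction for 40 of the 46 genes, beside 52.7% of all tested genes. For the 37 ER genes with a mean of at least 10 FPKM this held for 35, beside 90.2% of the 5697 tested genes at that level. The 6 genes whose interval reached past 1.25-fold were Sel1l, Dnajc3, Derl3, Ddit3, Ppp1r15a and Trib3.

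**Figure D1:**
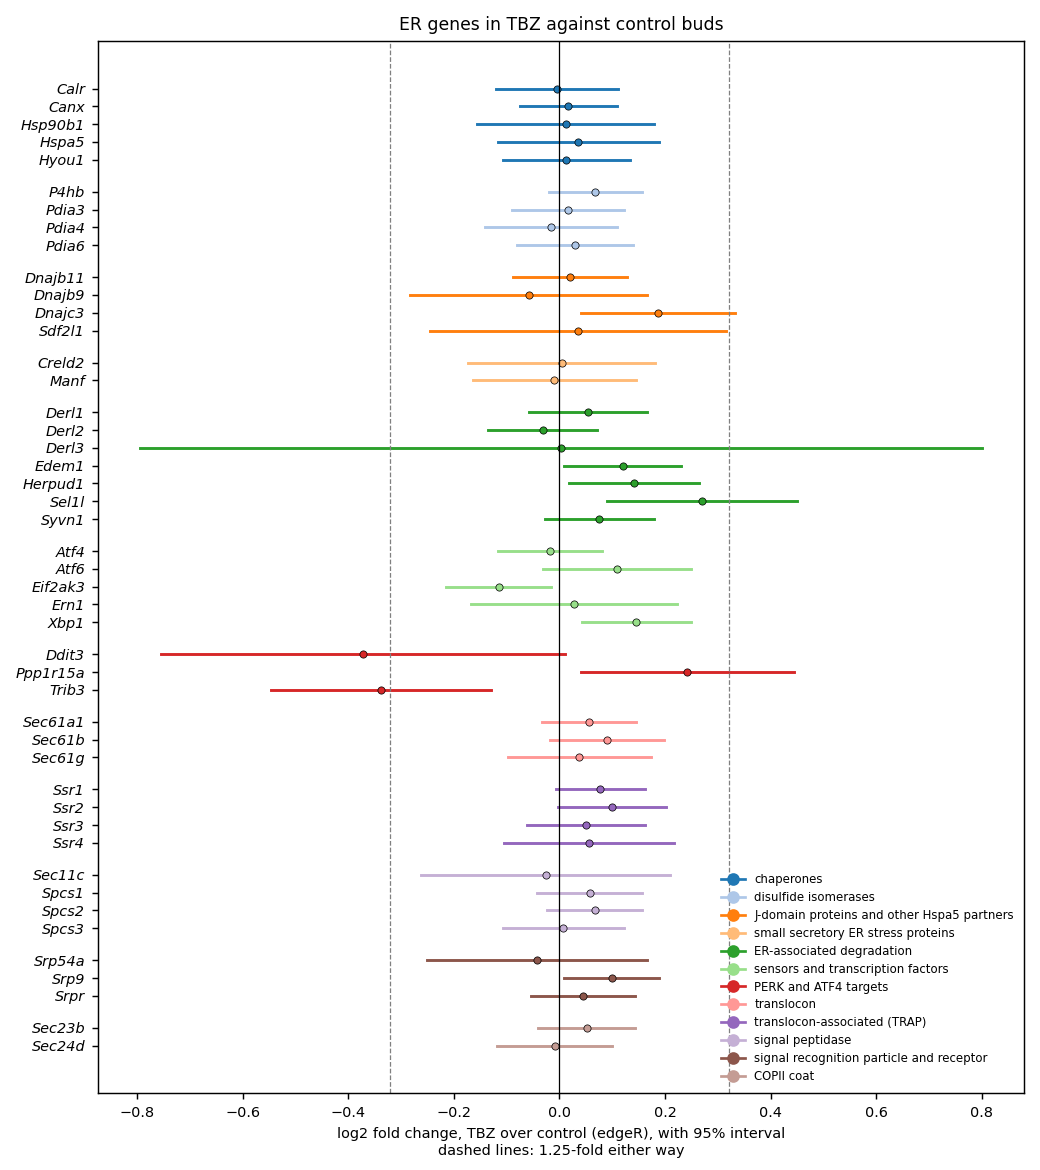
log2 fold change of TBZ over control for each of the 46 ER genes from the edgeR fit (horizontal axis), with its 95% interval as a bar and colours for the roles of the genes; dashed lines mark 1.25-fold either way. The bars of 40 genes stay between the dashed lines, and those of Derl3, Ddit3, Trib3, Ppp1r15a, Sel1l and Dnajc3 do not.

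In levels per transcript length the 46 genes spanned a 249-fold range. P4hb, the protein disulfide isomerase, stood highest with a mean of 348 FPKM over the 6 libraries, followed by the lectin chaperone Calr (336 FPKM) and the isomerase Pdia3 (298 FPKM). Derl3, a degradation factor found mainly in secretory cells, stood lowest at 1.40 FPKM. There were 11 genes at 100 FPKM or above, 26 between 10 and 100 and 9 below 10 FPKM. Of the 45 pairs of neighbours in this order, 34 had overlapping ranges over the 6 libraries, so most neighbours do not differ beyond their spread. P4hb and Calr overlapped, whereas Pdia3, Hspa5 (226 FPKM) and Hsp90b1 (177 FPKM) were separate from one another in every library. The sensors stood low among the 46 genes, with Atf6 at 10.2, Eif2ak3 at 7.85 and Ern1 at 6.64 FPKM. Each was under the means of the transcription factors Atf4 (127 FPKM) and Xbp1 (68.8 FPKM). Among all tested genes, 69.1% had a lower mean than Atf6, 62.9% than Eif2ak3 and 58.7% than Ern1.

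**Figure D2:**
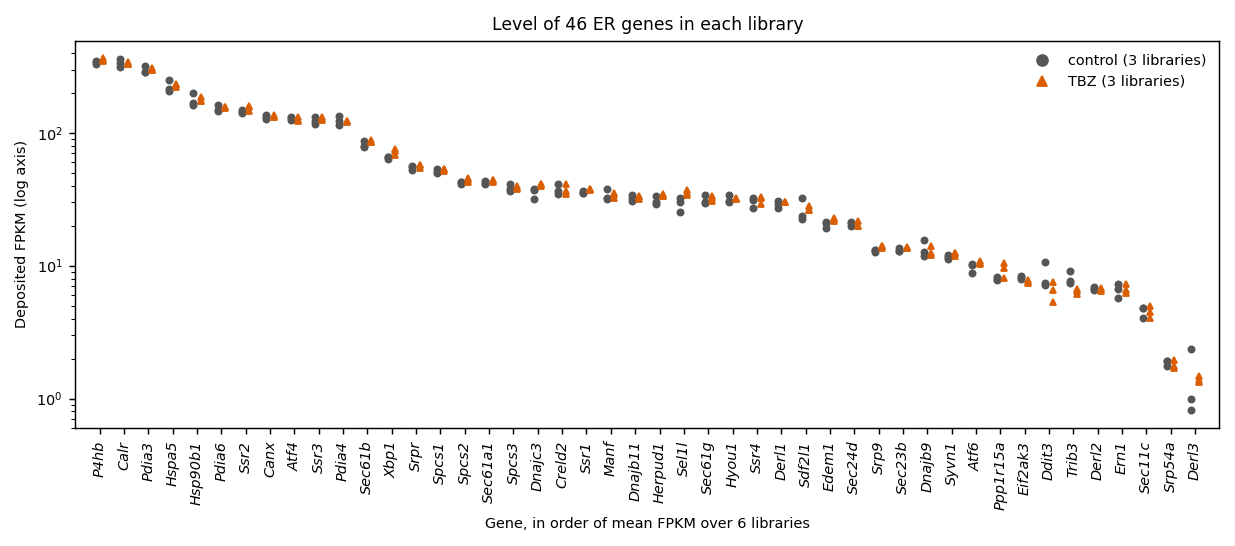
Deposited FPKM of each ER gene in the 3 control (circles) and 3 TBZ (triangles) libraries, on a log axis, with genes in order of their mean. The order runs from P4hb at 348 to Derl3 at 1.40 FPKM, and the points of the 2 groups lie together for most genes, with Derl3, Ddit3 and Trib3 the most scattered by eye.

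The ER chaperones were close to equal in both groups, with a median log2 ratio of 0.01 over 5 genes. Hspa5 encodes BiP, the HSP70 of the ER that also holds the stress sensors inactive, and lies on chromosome 2 from 34771970 to 34777547 (mm10). It stood at 214, 251 and 206 FPKM in control replicates 1 to 3 and at 234, 223 and 229 FPKM in TBZ replicates 1 to 3. The TBZ values lay inside the range of the controls, which control replicate 2 widened upwards. The log2 ratio of Hspa5 was 0.04 ± 0.07 (SE), with a 95% interval from -0.12 to 0.19 and an edgeR adjusted p of 0.905. Calr, the calcium-binding lectin chaperone calreticulin and the most abundant chaperone, stood at 313, 359 and 336 FPKM in control and at 343, 329 and 333 FPKM in TBZ libraries, with a 95% interval from -0.12 to 0.11. Canx (calnexin), Hsp90b1 (GRP94) and Hyou1 (GRP170) had log2 ratios of 0.02, 0.01 and 0.01.

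Disulfide isomerases form and reshuffle the disulfide bonds of secreted proteins, and their 4 genes had a median log2 ratio of 0.02. P4hb, both the most abundant and the one with the smallest p, stood at 340.2, 350.4 and 328 FPKM in control and at 364, 349 and 354 FPKM in TBZ libraries. Its groups overlapped, the log2 ratio was 0.07 ± 0.04 (SE) and the edgeR adjusted p was 0.628. Pdia3, Pdia4 and Pdia6 ranged from -0.02 to 0.03.

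Among the partners of BiP, Dnajc3 had the largest log2 ratio, and differences between these genes were not tested. Dnajc3, a J-domain co-chaperone also known as p58IPK, lies on chromosome 14 from 118937976 to 118981697 (mm10). It stood at 37.4, 37.7 and 31.7 FPKM in control and at 40.9, 39.7 and 40.9 FPKM in TBZ libraries. All TBZ values were above all control values, with the widest gap to control replicate 3. The log2 ratio was 0.19 ± 0.06 (SE), its 95% interval ran from 0.04 to 0.33, and it did not pass (edgeR adjusted p = 0.396; DESeq2 adjusted p = 0.238). Dnajb11, Sdf2l1 and Dnajb9 were at 0.02, 0.03 and -0.06. The small proteins Manf and Creld2, which leave the ER under stress, were at -0.01 and 0.00 with overlapping groups.

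The genes of ER-associated degradation, which pull misfolded proteins out of the ER for destruction, included Sel1l, with the largest positive value of the 46. Of 7 genes, 6 had a positive log2 ratio, 3 had non-overlapping groups and none passed; the median was 0.08. Sel1l, the adaptor of the ubiquitin ligase Syvn1 (HRD1), lies on chromosome 12 from 91806043 to 91849157 (mm10). It stood at 30.1, 32.4 and 25.5 FPKM in control and at 36.9, 33.9 and 35.2 FPKM in TBZ libraries, so that the groups did not overlap. Its log2 ratio was 0.27 ± 0.08 (SE), a ratio of 1.21, with a 95% interval from 0.09 to 0.45. The edgeR adjusted p was 0.298, DESeq2 gave 0.0515, the authors' deposited table lists 0.0512, and edgeR with no expression filter, which called 1.42% of all genes, gave 0.00463, the one setting in which an ER gene passed. Across all settings tried, the adjusted p of Sel1l lay between 0.00463 and 0.671, and the log2 ratio between 0.18 and 0.35 when a library was left out.

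Herpud1 and Edem1, which feed substrates to the same degradation route, had non-overlapping groups too. Herpud1, level with Sel1l by its mean over all libraries, stood at 30.3, 33.2 and 28.9 FPKM in control and at 33.7, 33.8 and 34.4 FPKM in TBZ libraries, with a log2 ratio of 0.14 ± 0.05 (SE; edgeR adjusted p = 0.453). The lowest TBZ value was just above control replicate 2. Edem1 had a log2 ratio of 0.12 (edgeR adjusted p = 0.483), Syvn1 of 0.08 and the derlin genes Derl1, Derl2 and Derl3 of 0.05, -0.03 and 0.00. For Derl3, at the lowest level, the 95% interval ran from -0.80 to 0.80, so these libraries do not exclude a difference of up to 1.74-fold. The log2 ratio of Derl3 was 0.64 ± 0.19 (SE) without control replicate 2 (edgeR adjusted p = 0.439) and -0.26 without control replicate 3.

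The 3 sensors and 2 transcription factors of the response differed in direction among themselves. Xbp1, whose transcript is spliced by IRE1 into the form that encodes the active factor, lies on chromosome 11 from 5520659 to 5525893 (mm10). It stood at 66.2, 66.0 and 63.9 FPKM in control and at 75.1, 68.3 and 73.2 FPKM in TBZ libraries. Every TBZ library was above every control library, with TBZ replicate 2 nearest to them. The log2 ratio of Xbp1 was 0.15 ± 0.05 (SE), with a 95% interval from 0.04 to 0.25, and it did not pass (edgeR adjusted p = 0.338, and between 0.233 and 0.724 in the other settings). The spliced and unspliced forms were not analysed here. Eif2ak3 stood at 8.21, 8.31 and 7.97 FPKM in control and at 7.49, 7.36 and 7.74 FPKM in TBZ libraries, all of them below the controls, with a log2 ratio of -0.12 ± 0.04 (SE; edgeR adjusted p = 0.453). Atf4, whose protein is made when PERK slows general translation, stood at 129, 131 and 124 FPKM in control and at 132, 122 and 125 FPKM in TBZ libraries, with a log2 ratio of -0.02 ± 0.04 (SE). Ern1 and Atf6 were at 0.03 and 0.11 with overlapping groups.

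Targets of the PERK and ATF4 branch had the largest negative values of the 46, and 1 of the 3 pointed the other way. Trib3, a pseudokinase that restrains ATF4 signalling, lies on chromosome 2 from 152337422 to 152344032 (mm10). It stood at 7.47, 9.12 and 7.69 FPKM in control and at 6.65, 6.12 and 6.43 FPKM in TBZ libraries, and the groups did not overlap. The log2 ratio of Trib3 was -0.34 ± 0.09 (SE) with a 95% interval from -0.55 to -0.13, the smallest p of the 46 genes (unadjusted p = 0.00498), and it did not pass (edgeR adjusted p = 0.256; DESeq2 adjusted p = 0.0905). Its value lay between -0.40 and -0.24 when any library was left out.

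Ddit3, the stress-induced factor CHOP, stood at 7.18, 10.6 and 7.37 FPKM in control and at 7.50, 6.59 and 5.36 FPKM in TBZ libraries. Its groups overlapped, since TBZ replicate 1 lay above control replicates 1 and 3. The log2 ratio was -0.37 ± 0.17 (SE), and it was -0.16 without control replicate 2, which held the highest value (edgeR adjusted p = 0.537 with all libraries). Exons of Ddit3 share 105 bases with the second gene model of that name and 68 bases with Mars on the opposite strand, so its reads are uncertain. Ppp1r15a (GADD34), which restores translation after PERK has slowed it, stood at 7.82, 8.21 and 7.98 FPKM in control and at 10.6, 8.14 and 9.68 FPKM in TBZ libraries. TBZ replicate 2 was within the controls and the other TBZ libraries above them, with a log2 ratio of 0.24 ± 0.09 (SE; edgeR adjusted p = 0.431).

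The translocation machinery gave small values that were nearly all positive. All 3 genes of the Sec61 channel and all 4 of the translocon-associated protein complex (TRAP) had positive log2 ratios, from 0.04 to 0.10, none of which passed. Positive values made up 50.1% of all tested genes and 56.2% of those with a mean of at least 10 FPKM. Sec61b, the most abundant channel subunit per length, stood at 86.2, 80.1 and 77.7 FPKM in control and at 85.6, 85.9 and 88.1 FPKM in TBZ libraries, with overlapping groups and a log2 ratio of 0.09 ± 0.05 (SE). Sec61a1, the pore, and Sec61g were at 0.06 and 0.04. Of the TRAP genes, Ssr2 stood at 149, 144 and 142 FPKM in control and at 160.4, 147 and 158 FPKM in TBZ libraries (log2 ratio 0.10 ± 0.05 SE, edgeR adjusted p = 0.537), where TBZ replicate 2 fell within the control range. Ssr1 had non-overlapping groups at 0.08, and Ssr3 and Ssr4 were at 0.05 and 0.06.

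Signal peptidase subunits, which cut the signal peptide off, ranged from -0.03 (Sec11c) to 0.07 (Spcs2). Spcs1, the most abundant, stood at 49.7, 53.0 and 50.4 FPKM in control and at 53.8, 51.6 and 53.7 FPKM in TBZ libraries, with a log2 ratio of 0.06 ± 0.04 (SE), and its groups overlapped. Spcs2 stood at 42.8, 42.4 and 41.4 FPKM in control and at 45.4, 43.0 and 44.1 FPKM in TBZ libraries, without overlap and by a small margin at TBZ replicate 2 (edgeR adjusted p = 0.644). Exons of Spcs1 share 16.3% of their bases with Glt8d1 on the opposite strand. In all, 17 of the 46 genes share exon bases with another gene model, and whether the counting used strand is not given in the sources used here.

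Of the targeting genes, Srp9, a subunit of the signal recognition particle, stood at 13.2, 13.1 and 12.7 FPKM in control and at 14.1, 14.0 and 13.6 FPKM in TBZ libraries. These groups did not overlap, and the log2 ratio of 0.10 ± 0.04 (SE) did not pass (edgeR adjusted p = 0.475). The receptor gene Srpr stood at 52.7, 56.2 and 55.5 FPKM in control and at 57.1, 54.8 and 57.5 FPKM in TBZ libraries, with overlapping groups and a log2 ratio of 0.04. Srp54a, the subunit that binds the signal peptide, was low at 1.84 FPKM, with a log2 ratio of -0.04. It has the close copies Srp54b and Srp54c beside it on chromosome 12. How the authors' counting treated reads that match more than 1 copy is not given in the sources used here, so the value of Srp54a is uncertain. Srp54b ranged from 0.581 FPKM in TBZ replicate 3 to 10.5 FPKM in TBZ replicate 1, a wider spread than Srp54a (1.71 to 1.96 FPKM) or Srp54c (6.55 to 7.60 FPKM). The genes of COPII, the coat of vesicles that leave the ER, were at 0.05 for Sec23b and -0.01 for Sec24d, both with overlapping groups.

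**Figure D3:**
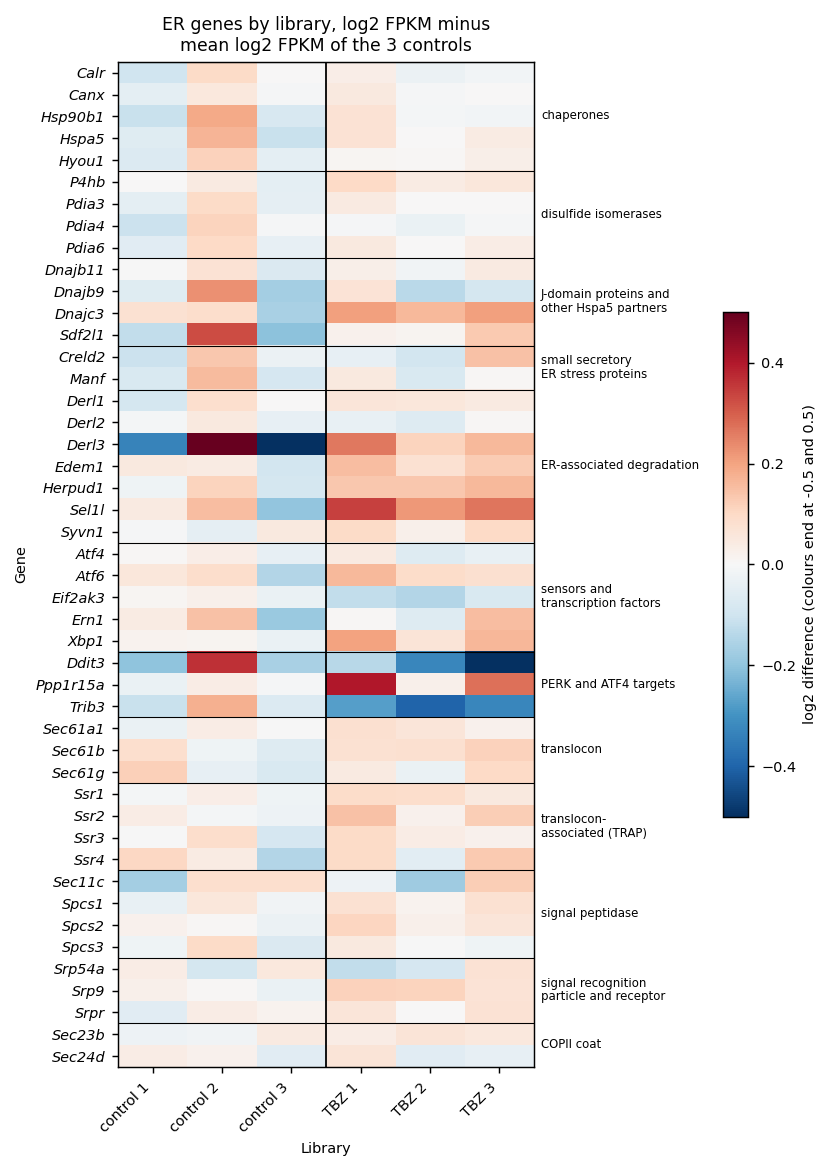
Heat map of log2 FPKM minus the mean log2 FPKM of the 3 controls, for the 46 ER genes (rows, by role) in the 6 libraries (columns); colours end at -0.5 and 0.5. Control replicate 2 is red for the chaperones and BiP partners, Sel1l and Dnajc3 are red in all 3 TBZ libraries, and Trib3 is blue in all 3.

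The ER genes differed more between the control libraries than between the TBZ libraries. This pattern was looked at after the values had been seen and is given without a test. The coefficient of variation of FPKM had a median over the 46 genes of 5.93% in controls and 2.70% in TBZ libraries, and it was larger in controls for 36 of 46 genes. Among the 5697 tested genes with a mean of at least 10 FPKM the medians were 4.12% and 3.27%, and 60.4% of the genes varied more in controls. Control replicate 2 was the highest of the 3 controls for 33 of the 46 genes, a place it held for 29.9% of the 5697 genes. It was the highest of all 6 libraries for 19 of the 46 (41.3%), beside 13.2% of the 5697 genes. Control replicate 3 was the lowest of all for 24 of the 46 (52.2%), beside 28.3% of the 5697 genes.

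The excess of control replicate 2 varied among the 46 genes. This library exceeded the mean of the other controls on the log2 FPKM scale by 1.41 for Derl3, 0.55 for Ddit3, 0.49 for Sdf2l1, 0.34 for Dnajb9, 0.29 for Hsp90b1, 0.27 for Trib3, 0.26 for Hspa5 and 0.24 for Manf, the 8 largest values. Next in order were Sel1l at 0.23, Ern1 at 0.22, Creld2 at 0.20 and Hyou1 at 0.18. Some other genes of the unfolded protein response had little or none, with 0.08 for Canx, 0.06 for Edem1, 0.02 for Xbp1 and -0.07 for Syvn1. Sdf2l1, a partner of BiP and a target of the unfolded protein response, stood at 23.8, 32.5 and 22.4 FPKM in control and at 26.3, 26.1 and 28.3 FPKM in TBZ libraries. Derl3 stood at 0.983, 2.38 and 0.814 FPKM in control and at 1.49, 1.34 and 1.39 FPKM in TBZ libraries. For both genes all TBZ values lay between control replicate 2 above and the other controls below. By role, the median excess of control replicate 2 was 0.18 for chaperones, 0.15 for disulfide isomerases, 0.24 for BiP partners, 0.22 for the small secretory proteins and 0.27 for PERK and ATF4 targets. It was 0.13 for degradation genes, 0.10 for signal peptidase, 0.05 for TRAP and 0.05 for sensors and transcription factors. It was 0.00 for the COPII genes, 0.01 for the signal recognition particle genes and -0.03 for the Sec61 channel. Genes with an ERSE or ERSE-II in the window (11 of 38) had a median excess of 0.15, and the other 27 had a median of 0.06. The ranges overlapped, from -0.07 to 1.41 for the 11 and from -0.13 to 0.55 for the 27. The excess was above 0 for 10 of the 11 and 23 of the 27, and a link to these elements was not tested. The median log2 ratio of TBZ over control was 0.02 for the 11 and 0.04 for the 27.

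The comparison of TBZ with control shifted when this library was left out. Without control replicate 2, the log2 ratio was 0.13 ± 0.04 (SE) for Hspa5, 0.11 ± 0.05 for Hsp90b1 and 0.22 ± 0.07 for Sdf2l1, and their edgeR adjusted p-values were 0.538, 0.602 and 0.474. Dnajb9 changed sign, from -0.06 to 0.07. In that fit 41 of the 46 genes were positive with a median of 0.08, whereas without control replicate 3 there were 24 with a median of 0.01. No ER gene passed in either fit. Control replicate 2 is also the most deeply sequenced library (50620936 reads). The median of 15 acinar genes in it, each set against its own mean in controls, was 0.05 on the log2 scale, against 0.03 and -0.15 in the other controls. For the other marker sets given below, the same medians in control replicate 2 were 0.19 for macrophages, 0.11 for mesenchyme and 0.11 for endocrine cells. They were 0.01 for endothelium, -0.01 for pancreatic epithelium, -0.07 for general epithelium and -0.13 for erythroid cells. Neural crest, glia and neuron markers were at -0.20 and stomach and oesophagus markers at -0.62, against 0.36 and 0.73 in control replicate 3. Whether depth or cell makeup had a part in the spread was not tested.

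As a share of all counted reads the 46 genes took 1.09 ± 0.0537% in control and 1.11 ± 0.0201% in TBZ libraries (mean ± SD over 3 libraries a group). The single values were 1.05, 1.15 and 1.06% in control and 1.13, 1.09 and 1.11% in TBZ libraries, so that all TBZ libraries lay within the control range. Acinar genes moved beside them by a larger amount: the 15 acinar marker genes took 0.628 ± 0.0481% in control and 0.937 ± 0.0852% in TBZ libraries (mean ± SD). All 15 pointed upwards (median 0.65), and 7 passed the edgeR test, beside 0.187% of all tested genes. DESeq2 called 12 of the 15, beside 1.43% of all genes with an adjusted p. Their summed level was 4260 to 5211 FPKM in control and 6444 to 8046 FPKM in TBZ libraries, and none was at 0 in any library. Bhlha15 (MIST1), a transcription factor of mature secretory cells, rose from 9.32 ± 0.0979 to 13.2 ± 0.452 FPKM (SD, n = 3 each; log2 ratio 0.50 ± 0.05 SE, edgeR adjusted p = 0.00632). Its call was lost without TBZ replicate 3 (edgeR adjusted p = 0.0529), with the replicate number as a block (0.0596) and with limma without a filter (limma adjusted p = 0.0762). Cpa1, an acinar carboxypeptidase, rose from 605 ± 39.3 to 823 ± 56.8 FPKM (log2 ratio 0.44 ± 0.06 SE, edgeR adjusted p = 0.0316), a call lost without control replicate 2 (0.0741), TBZ replicate 1 (0.152) or TBZ replicate 3 (0.234), with the block (0.145) and in all 4 limma settings (limma adjusted p from 0.0991 to 0.335). Of 7 pancreatic epithelium markers all were positive with a median of 0.40, 6 had non-overlapping groups and none passed with edgeR. DESeq2 called 4 of these 7, and their summed level was 151 to 181 FPKM in control and 201 to 231 FPKM in TBZ libraries. All 10 endocrine markers were positive with a median of 0.25 (259 to 317 and 249 to 394 FPKM in sum), and none passed. All 6 markers of neural crest, glia and neurons were negative with a median of -0.32, and none passed. The latter summed to 29.7, 27.4 and 41.3 FPKM in control replicates 1 to 3 and to 30.3, 29.2 and 27.7 FPKM in TBZ replicates 1 to 3. Only control replicate 3 was above all TBZ libraries in this sum. Medians were 0.06 for endothelium, 0.05 for general epithelium, 0.00 for mesenchyme, -0.03 for macrophages and -0.14 for erythroid cells, again with no gene past the edgeR test. DESeq2 called 1 of the 8 general epithelium genes and none of the endothelium, mesenchyme, macrophage or erythroid genes. The part of any cell type in the values of the ER genes was not tested. The 9 stomach and oesophagus markers, of which 7 were tested, had a summed level of 72.9 to 104 FPKM in control and 53.5 to 84.0 FPKM in TBZ libraries. Of these 9, Tff1 was at 0 in every library and Gkn2 in TBZ replicates 1 and 3. Among the 7 tested, 6 were negative and 1 was positive, with log2 ratios from -2.62 to 1.37 and a median of -0.31. None passed with edgeR, and DESeq2 called 1. Their summed level was 83.7, 72.9 and 104 FPKM in control replicates 1 to 3, so the top of the control range came from control replicate 3.

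**Figure D4:**
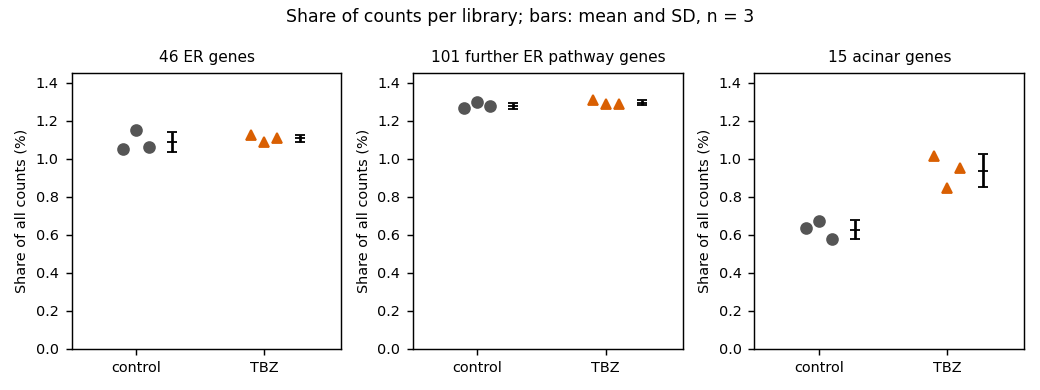
Share of all counted reads (%) taken by the 46 ER genes, by 101 further genes of the ER pathway and by 15 acinar genes, with 1 point per library and the mean and SD of each group (n = 3). The ER genes stay between 1.05 and 1.15% in all libraries, whereas the acinar genes lie at 0.937% on average in TBZ and 0.628% in control libraries.

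Further genes of the ER pathway gave the same kind of picture. Of 101 such genes in the table, 100 were tested, 71 had a positive and 29 a negative log2 ratio, the median was 0.03 and none passed with edgeR (0.187% of all tested genes did). Before adjustment, 14 had p under 0.05, 13 higher and 1 lower in TBZ, where 9.61% of all tested genes are. DESeq2 (1.43% of all genes called) and edgeR with no filter (1.42%) each called 3 of the 100 genes higher, Nupr1, Ero1lb and Edem2, and the authors' deposited table (0.767%) lists 3 past 0.05. Nupr1, a stress-induced chromatin protein, stood at 65.2, 68.8 and 62.1 FPKM in control and at 84.7, 74.1 and 82.2 FPKM in TBZ libraries (log2 ratio 0.30 ± 0.06 SE, edgeR adjusted p = 0.124, DESeq2 adjusted p = 0.00155). Ero1lb, the oxidase that recharges disulfide isomerases in pancreatic secretory cells, stood at 5.11, 5.10 and 4.21 FPKM in control and at 6.01, 5.89 and 6.65 FPKM in TBZ libraries (0.36 ± 0.08 SE, edgeR adjusted p = 0.169, DESeq2 adjusted p = 0.0101). Edem2, which trims mannose from glycoproteins bound for degradation, stood at 14.0, 15.1 and 14.0 FPKM in control and at 17.0, 16.0 and 18.8 FPKM in TBZ libraries (0.26 ± 0.07 SE, edgeR adjusted p = 0.207, DESeq2 adjusted p = 0.0473). For each of these 3 genes all TBZ libraries were above all controls.

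By group, the degradation genes had a median of 0.06 over 13 genes (11 positive), with Erlec1 at 0.10 next to Edem2. The folding and redox genes had a median of 0.04 over 21 (18 positive), with Txndc11 at 0.19. Targeting and translocation genes had a median of 0.06 over 15 (11 positive), led in p by Tram1 (0.11) and Sec62 (0.08). Oligosaccharyltransferase genes, which attach N-glycans, had a median of 0.02 over 9 (8 positive), with Ost4 and Ddost both at 0.05. Genes of ER to Golgi transport had a median of 0.01 over 22 (12 positive), with Mcfd2 at 0.14 and Arfgap3 at 0.11. Stress signalling genes had a median of 0.01 over 20 (11 positive). In that group Cebpg, a partner of ATF4, stood at 14.0, 14.5 and 13.3 FPKM in control and at 12.47, 12.43 and 11.93 FPKM in TBZ libraries, all below the controls (-0.18 ± 0.05 SE, edgeR adjusted p = 0.230). Asns, another ATF4 target, pointed the other way from Cebpg and Trib3 at 0.11 (edgeR adjusted p = 0.449).

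**Figure D5:**
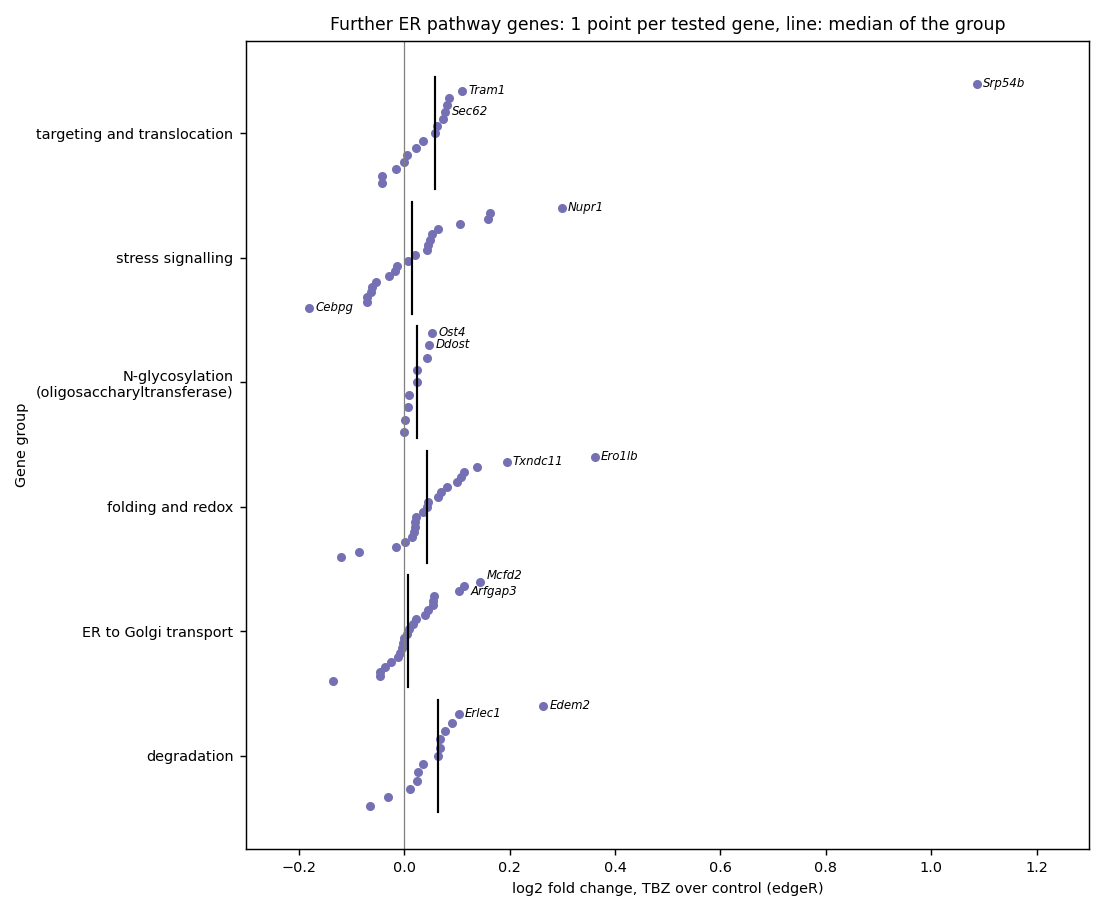
log2 fold change of TBZ over control (horizontal axis, edgeR) for 100 further ER pathway genes, 1 point per gene in 6 groups, with the median of each group as a line. The medians lie between 0.01 and 0.06, Nupr1, Ero1lb and Edem2 stand to the right of their groups, and Srp54b (1.09) had a 95% interval from -0.53 to 2.70.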

How the data were processed

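Poly-A RNA of 3 control and 3 TBZ libraries was sequenced. The submitters' processing notes name STAR, HTSeq and the build mm10, with no versions. Per the file headers the deposited table holds raw read counts, FPKM values, group means of normalised counts (a signal column, not used), the log2 fold changes of the authors and the p-values of the authors, whose tool is not named. The authors' values were nearly those of DESeq2 here, with 0.0343 for Hspa5, -0.340 for Trib3 and 222 genes past 0.05 in both. The 2 are therefore not separate checks. Levels are the deposited FPKM, which the authors scaled by gene length and library size.

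Counts of 18226 of 54532 genes passed filterByExpr and were tested with the edgeR quasi-likelihood test (TMM scaling, Benjamini-Hochberg adjustment over all tested genes, threshold 0.05). Each SE was obtained by dividing the size of the log2 ratio by the root of the F statistic, and intervals are at 95%. The biological coefficient of variation was 8.30%. Overlap of groups was judged on TMM-scaled CPM. Other settings were limma on log2(FPKM + 0.5, 0.1 or 1), DESeq2, a fit with a replicate block, edgeR without the filter or with RLE scaling, and each library left out. Scripts were tested on simulated data. The replicate numbers were not taken as pairs, since same-numbered libraries did not deviate together. The genes, lists and naming rule (the smallest p and highest FPKM of each role, and Hspa5, Xbp1, Atf4 and Ddit3) were chosen with earlier results of these data known. Ern1, Eif2ak3, Sdf2l1, Derl3, Hsp90b1, Dnajb9, Edem1, Asns, Srp54b and some others were described after their values were seen. Coordinates are those of the table, and 45 of 46 genes had the same start and end in GENCODE M21. Promoter windows are from RefSeq (GRCm38.p6). DESeq2 1.42.0, limma 3.58.1 and edgeR 4.0.16 ran in R 4.3.3.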

Additional observations from a re-analysis of the deposited data

How the results depend on the processing

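No ER gene passed in any setting except Sel1l in edgeR with no filter, where the count was 1 of 46. The count over further ER pathway genes was 3 with DESeq2 and 3 with no filter, and 0 in the other settings (for this count the settings were chosen after seeing the data). Over all genes the count was 222 with DESeq2, 445 with no filter, 14, 13 and 14 with limma on log2(FPKM + 0.5, 0.1 and 1), and 0 with limma on log2(FPKM + 0.5) without a filter, where 2135 genes had an unadjusted p under 0.05. Leaving out a library gave 5 to 36 genes. With the replicate block the count over all genes was 5 and that of ER genes 0. Same-numbered libraries deviated from their group means with r = -0.01, -0.18 and -0.08, and no library correlated best with its own number, so the numbers show no pairing.

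The median log2 fold change of the ER genes lay between 0.01 and 0.08 when a library was left out, and between 0.03 and 0.04 in the other settings. A total of 26 of the 46 genes kept their direction in all 14 settings (21 positive, 5 negative), and the 20 that did not had values of at most 0.06 in size with all libraries. All changes of direction came from leaving out a library, except that Derl3 (0.0030) was also -0.00058 with no filter. Over the left-out libraries, values ran from -0.26 to 0.64 for Derl3, -0.063 to 0.22 for Sdf2l1, -0.14 to 0.067 for Dnajb9, -0.046 to 0.11 for Hsp90b1, -0.017 to 0.13 for Hspa5, -0.057 to 0.11 for Ern1, -0.056 to 0.046 for Calr, -0.052 to 0.0073 for Atf4, -0.071 to 0.077 for Creld2, -0.052 to 0.075 for Manf and -0.049 to 0.016 for Sec24d. The other 9 were Canx, Hyou1, Pdia3, Pdia4, Pdia6, Dnajb11, Ssr4, Spcs3 and Sec11c, between -0.11 and 0.11. The spread between 3 libraries limits the precision, and the 95% bounds of the ER genes lay at a median of 0.11 from the estimate on the log2 scale.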
